A study of Mus musculus with 4 samples.

Results

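Peroxide removal by glutathione and the making of selenoproteins were followed in mouse muscle stem cells through 10 genes: 5 glutathione peroxidases (Gpx1, Gpx3, Gpx4, Gpx7 and Gpx8) and 5 genes of selenoprotein synthesis (Sephs1, Sephs2, Secisbp2, Sepsecs and Pstk). They were chosen by symbol from the 11603 genes listed, and all 10 were found. The set was proposed with the knockout and control values of these libraries already known, so the differences between groups below are a description, and their p-values support nothing further. Muscle stem cells, the resident precursors of skeletal muscle, came from hindlimb muscles of C57BL/6 males, 4 to 5 months old, and had been sorted as VCAM1-positive and negative for CD31, CD45 and Sca1. There were 2 libraries labelled control and 2 labelled conditional knockout of Hairless (Hr), a nuclear corepressor. The labels name neither the Cre driver nor the deleted allele, and say no more of the control genotype. They also leave unsaid whether each library is a different animal, so p-values reflect the spread between libraries, which may be technical.

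The glutathione peroxidases Gpx1, Gpx3 and Gpx4 reduce hydrogen peroxide or lipid peroxides with electrons from glutathione. Their catalytic residue is selenocysteine, which is encoded by UGA, a codon that otherwise stops translation. Reading it as selenocysteine takes selenophosphate, made by Sephs2, a dedicated tRNA loaded through Pstk and Sepsecs, and the RNA-binding protein Secisbp2, which recognises a hairpin in the 3′ untranslated region. Sephs2 is itself a selenoprotein. Gpx7 and Gpx8 use cysteine at the catalytic position and act in the endoplasmic reticulum, and Sephs1 is a relative of Sephs2 that does not make selenophosphate. Of the members, then, only Gpx1, Gpx3, Gpx4 and Sephs2 are selenoproteins, as their codons show.

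The coding sequence around the catalytic codon is shown first, because it divides the members into those that need the recoding machinery and those that do not. The windows are from GENCODE M21 transcripts (GRCm38, the same build as mm10), 5′ to 3′, and capitals mark the codon of the residue with 15 bases on each side.
Gpx1: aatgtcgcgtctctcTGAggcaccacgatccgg
Gpx3: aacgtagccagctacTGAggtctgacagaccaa
Gpx4: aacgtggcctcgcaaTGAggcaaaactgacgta
Gpx7: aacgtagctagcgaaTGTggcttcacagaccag
Gpx8: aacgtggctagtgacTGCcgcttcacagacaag
Sephs2: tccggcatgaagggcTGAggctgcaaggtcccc
Sephs1: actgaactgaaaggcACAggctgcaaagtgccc

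TGA, the DNA form of UGA, stood at the annotated selenocysteine of Gpx1, Gpx3, Gpx4 and Sephs2. Gpx7 and Gpx8 carried the cysteine codons TGT and TGC at the aligned place, and Sephs1 carried the threonine codon ACA. Over the 33 bases, 12 were alike in all 5 glutathione peroxidases, 27 were alike in Gpx7 and Gpx8, and 23 were alike in Sephs1 and Sephs2. Gpx3 shared 25 bases with the cysteine enzyme Gpx7, against 20 with Gpx4 and 16 with Gpx1. Counted from the start codon, the selenocysteine was residue 47 of Gpx1 (exon 1 of 2, chr9:108339451-108339453, plus strand) and residue 73 of Gpx3 (exon 2 of 5, chr11:54907256-54907258, plus strand). In Gpx4 it was residue 73 of the transcript used (exon 3 of 7, chr10:80054737-80054739, plus strand), and in Sephs2 residue 63 in a gene of 1 exon (chr7:127273731-127273733, minus strand). The cysteine codons lay in exon 2 of 3 of both Gpx7 (chr4:108403430-108403432, minus strand) and Gpx8 (chr13:113045661-113045663, minus strand). The threonine codon of Sephs1 lay in exon 2 of 9 (chr2:4884497-4884499, plus strand).

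Values are RPKM (reads scaled by summed exon length and library size), with n = 2 per group, with the 2 controls named first and the 2 knockouts second, replicate 1 before replicate 2. Depth ran from 21757211 to 34101213 reads a library over the genes listed. Hr itself had 9.28 and 8.94 RPKM in the controls, against 7.15 and 7.9 RPKM in the knockouts (limma adjusted p = 0.431). Its transcript was thus still counted, and every direction rests on the labels. All 8 muscle stem cell markers were present in every library, and summed to 2650 and 2144 RPKM in the controls, against 3556 and 3748 RPKM in the knockouts. Of these, 3 (Sdc4, Myf5 and Cd34) were above control in both knockouts, 1 (Itga7) was below and 4 overlapped. Sdc4 made up most of the sum, at 2121 and 1582 RPKM against 3031 and 3260 RPKM, while Pax7 overlapped at 8.23 to 13.1 RPKM. The markers of blood cells summed to 11.8 to 18.3 RPKM, with Ptprc (CD45) at no more than 0.0399 RPKM, and those of endothelium summed to 38.4 to 71.6 RPKM. The 5 of 6 fibro-adipogenic markers listed summed to 271 and 225 RPKM in the controls, against 461 and 300 RPKM in the knockouts. Only Ly6a (Sca1) of these 5 was separated, at 47.9 and 49.5 RPKM against 77.4 and 80.7 RPKM, and Dcn, Lum, Dpt and Cd55 overlapped. Knockout 1 stood highest through Dpt, at 323 RPKM against 117 to 131 RPKM in the other libraries. The 6 of 7 myofibre markers listed summed to 163 and 686 RPKM in the controls, against 50.3 and 48.7 RPKM in the knockouts. Markers of smooth muscle and pericytes summed to 43.0 to 62.1 RPKM and those of Schwann cells to 7.79 to 18.6 RPKM, with overlap between groups. Red blood cell markers, 2 of 5 listed, stood highest in knockout 2 at 125 RPKM, against 8.46 to 36.0 RPKM in the other libraries. The part of these other cells in the results below was not tested, and in bulk samples fewer cells of a type and less RNA per cell cannot be told apart.

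In the knockout libraries, both values of Gpx3, Gpx4 and Sephs2 were above both control values, and both values of Gpx7, Sephs1 and Sepsecs were below. The other 4 members, Gpx1, Gpx8, Secisbp2 and Pstk, overlapped between groups. The same separation upwards was seen in 25.0% of all genes listed and downwards in 26.2%, beside 3 of 10 members in each direction. In a limma fit over the whole table, 0 of the 10 members passed an adjusted p of 0.05, beside 0.00862% of all genes, and limma-voom on recovered reads also called 0. At an unadjusted p under 0.05, 3 members were higher, beside 10.3% of all genes, and 2 lower, beside 7.69%. A q-value under 0.05 in the authors' deposited table went with higher values for 3 members (Gpx3, Gpx4 and Sephs2), beside 3.59% of all genes, and with lower values for 1 (Gpx7), beside 4.26%. Since the members were proposed with this comparison in view, nothing is read from these counts. The median log2 fold change was 0.03 over the 10 members and -0.01 over all genes.

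The levels differed widely between members, as the plot of RPKM by gene shows. The order of the control means ran from Gpx3 through Gpx4, Gpx1, Gpx8, Sephs2, Gpx7, Secisbp2, Sephs1 and Pstk to Sepsecs. Among neighbours, the control values of Sephs2 and Gpx7 overlapped, as did those of Pstk and Sepsecs. In the knockout libraries Sephs2 stood above Gpx8, and Pstk and Sephs1 overlapped.

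**Figure D1:**
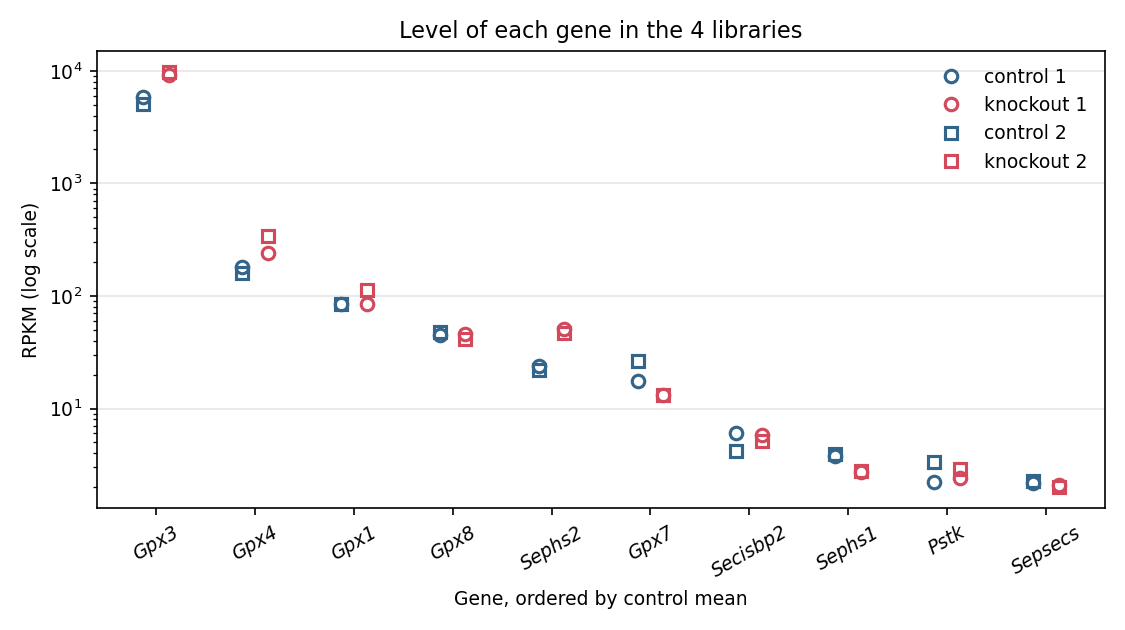
RPKM (log axis) of each of the 10 genes in the 4 libraries, blue for control and red for knockout, with circles for replicate 1 and squares for replicate 2. Gpx3 lies more than an order of magnitude above the next gene, and Sephs2 stands above Gpx8 in the knockout libraries.

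Gpx3 encodes the secreted, plasma form of glutathione peroxidase (Entrez gene 14778, chr11:54902453-54910377, plus strand, mm10). It had 5887 and 5044 RPKM in the controls, against 9157 and 9841 RPKM in the knockouts. It held rank 3 among all genes listed in both control libraries and in knockout 1, and rank 5 in knockout 2. Its reads made up 0.917% and 0.845% of the control libraries and 1.26% and 1.35% of the knockout libraries. Among the 5 glutathione peroxidases it supplied 94.1% to 96.0% of the summed RPKM in every library, so the level of the family is that of Gpx3. The means were 5465 ± 596 and 9499 ± 484 RPKM (SD, n = 2), 1.74-fold higher in knockout. On the log2(RPKM + 0.5) scale of the main values, which understates changes of low genes, the difference was 0.80 (standard error 0.23), with a limma adjusted p of 0.196. The q-value in the authors' deposited table was 0.00124. On the authors' scale, the only scale on which markers were summed, the muscle stem cell markers and fibro-adipogenic markers were also higher in both knockouts. Their part in the Gpx3 values was not tested.

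Gpx4, the phospholipid hydroperoxide reductase that holds back lipid peroxidation in membranes (Entrez gene 625249, chr10:80047166-80056439, plus strand), had 179 and 159 RPKM in the controls, against 240 and 340 RPKM in the knockouts. The groups did not overlap, but the knockout libraries differed from each other by more than the control libraries did. The means were 169 ± 14.1 and 290 ± 70.8 RPKM (SD, n = 2), 1.72-fold higher in knockout. The log2 fold change was 0.76 (standard error 0.21) and the limma adjusted p was 0.189, beside a q-value of 0.044 in the authors' deposited table. Without knockout 1 the difference was 1.01 and without knockout 2 it was 0.51. The values sum the exons of its cytosolic, mitochondrial and nuclear forms. A transcribed processed pseudogene, Gpx4-ps2 (chr10:45875291-45876086), is annotated but not among the genes listed, and how shared reads were counted was not given in the sources used here.

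Gpx1, the abundant cytosolic enzyme (Entrez gene 14775, chr9:108338903-108340343, plus strand), had 85.4 and 84.2 RPKM in the controls, against 85.2 and 113 RPKM in the knockouts. Knockout 2 alone was high, and the groups overlapped. The log2 fold change was 0.21 (standard error 0.18) and the limma adjusted p was 0.567. It was 0.01 without knockout 2 and turned to -0.03 on a scale set by the reads listed. Within a library, where scaling plays no part, the RPKM of Gpx3 was 68.9 and 59.9 times that of Gpx1 in control and 107 and 87.0 times in knockout, while Gpx3 was 32.9 and 31.7 times Gpx4 in control and 38.2 and 29.0 times in knockout. The ratio to Gpx1 did not overlap between groups and the ratio to Gpx4 did.

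The cysteine enzymes of the endoplasmic reticulum differed from each other. Gpx7 (Entrez gene 67305, chr4:108400390-108406961, minus strand) had 17.7 and 26.7 RPKM in the controls, against 13.2 and 13.3 RPKM in the knockouts. The means were 22.2 ± 6.36 and 13.2 ± 0.111 RPKM (SD, n = 2), 1.68-fold lower in knockout, with a log2 fold change of -0.70 (standard error 0.22; limma adjusted p = 0.213). The authors' deposited table gave it a q-value of 0.0327. Its highest value was in control 2, the library in which the myofibre markers summed to 686 RPKM, and without control 2 the difference was -0.41. Gpx8 (Entrez gene 69590, chr13:113042763-113046388, minus strand) had 45.0 and 47.7 RPKM in the controls, against 46.0 and 41.6 RPKM in the knockouts, where the log2 fold change was -0.08 (standard error 0.14; limma adjusted p = 0.791). The ratio of Gpx8 to Gpx7 was 2.54 and 1.78 in control and 3.50 and 3.13 in knockout.

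On the authors' scale the largest difference among members was in Sephs2, selenophosphate synthetase 2 (Entrez gene 20768, chr7:127272561-127273919, minus strand). It had 24.1 and 21.8 RPKM in the controls, against 51.0 and 46.7 RPKM in the knockouts, on 618 to 1788 reads a library. The means were 22.9 ± 1.60 and 48.8 ± 3.0 RPKM (SD, n = 2), 2.13-fold higher in knockout. The log2 fold change was 1.08 (standard error 0.14) and the limma adjusted p was 0.133, beside a q-value of 6.24e-06 in the authors' deposited table. It stayed between 1.01 and 1.15 when any 1 library was left out. The deposited exon of 1359 bases is shorter than the GENCODE gene, and reads of the mRNA outside it are not in these values. The RPKM of Sephs2 beside that of other genes, Sephs1 included, carries that limit. The exon shares 656 bases (48.3%) with Gm44729, an unlisted gene model on the opposite strand. Without a statement on strand in the sources used here, reads of the pair cannot be told apart.

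Sephs1, its threonine-bearing relative (Entrez gene 109079, chr2:4881564-4910557, plus strand), had 3.82 and 3.91 RPKM in the controls, against 2.74 and 2.79 RPKM in the knockouts. Both knockout values were below both control values, with replicates close together in each group, and the knockout mean was 1.40-fold lower. The log2 fold change was -0.42 (standard error 0.16) and the limma adjusted p was 0.267, and the q-value in the authors' deposited table was 0.102. The paralogs thus stood on opposite sides: the RPKM of Sephs2 was 6.29 and 5.57 times that of Sephs1 in the control libraries and 18.6 and 16.7 times in the knockout libraries.

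The other genes of the machinery were low, with differences smaller than their standard errors. Secisbp2, which binds the recoding hairpin (Entrez gene 75420, chr13:51651697-51684044, plus strand), had 6.06 and 4.23 RPKM in the controls, against 5.82 and 5.17 RPKM in the knockouts, with a limma adjusted p of 0.833. Its log2 fold change of 0.10 turned to -0.11 on a scale set by the reads listed and to -0.13 without control 2. Sepsecs, which converts phosphoseryl-tRNA to selenocysteinyl-tRNA (Entrez gene 211006, chr5:52640087-52669708, minus strand), had 2.18 and 2.26 RPKM in the controls, against 2.09 and 1.99 RPKM in the knockouts. Its groups did not overlap, but the log2 fold change was -0.10 (standard error 0.16) and the limma adjusted p was 0.779. Pstk, the kinase that acts before Sepsecs (Entrez gene 214580, chr7:131371141-131387839, plus strand), rested on 103 to 152 reads a library. It had 2.24 and 3.34 RPKM in the controls, against 2.40 and 2.88 RPKM in the knockouts, where the log2 fold change was -0.05 (standard error 0.23; limma adjusted p = 0.932). That difference turned to 0.19 without control 2 and to 0.06 without knockout 1.

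These comparisons move with the scale, and the authors' library sizes were 75.5% to 92.4% of the reads listed and lowest for the knockout libraries. On the scale of the reads listed, the median log2 fold change over all genes went from -0.01 to -0.20, and scaling each library to the same summed RPKM moved it to -0.32. Under the reads listed, 11.4% of all genes had both knockout values above both control values and 47.2% below, and with equal RPKM sums these shares were 7.02% and 58.9%. Of the members, 3 were above and 4 below on either scale, Gpx8 joining those below. Gpx3, Gpx4 and Sephs2 were the 3 above on each of the 3 scales, at 1.35-fold, 1.33-fold and 1.66-fold with equal RPKM sums. Gpx7, Sephs1 and Sepsecs had both knockout values below both control values on every scale. With equal RPKM sums they were lower by 2.18-fold, 1.80-fold and 1.4-fold. On both other scales the difference was larger for Gpx7 (-0.92 and -1.05) than for Sephs2 (0.84 and 0.71).

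**Figure D2:**
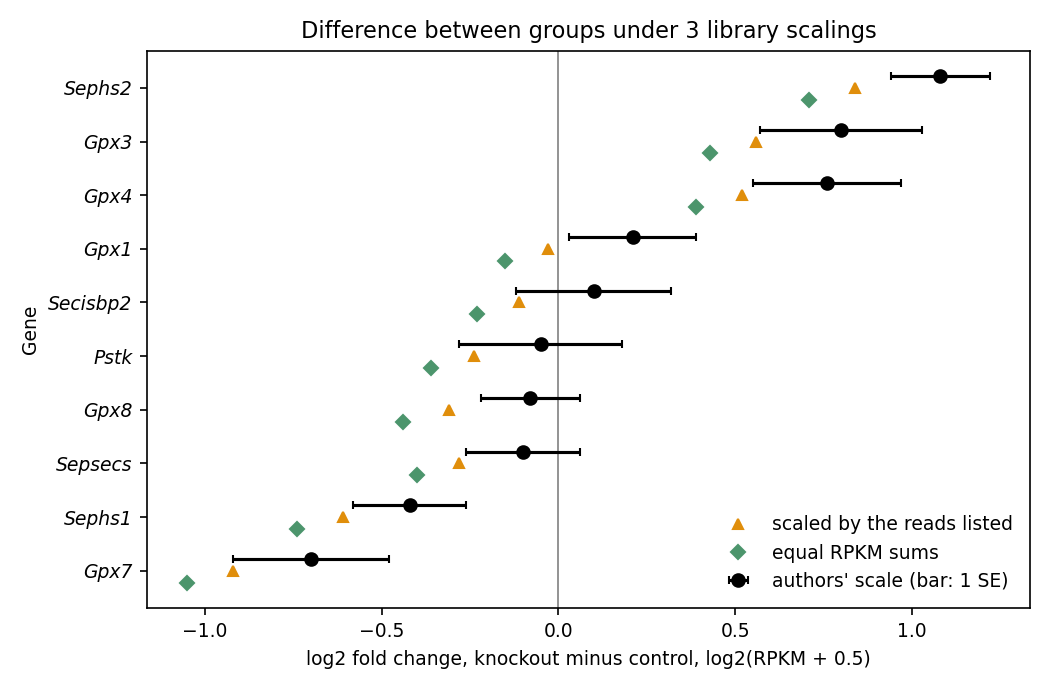
Log2 fold change of knockout minus control for each of the 10 genes on the authors' scale (black, bar 1 standard error), scaled by the reads listed (orange triangles) and with equal RPKM sums (green diamonds). Sephs2, Gpx3 and Gpx4 lie right of 0 on all 3 scales, and Gpx1 and Secisbp2 cross it. Gpx7, Sephs1, Sepsecs, Gpx8 and Pstk lie left of it on all 3.

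The reach of the recoding machinery was followed in every gene with a selenocysteine codon in GENCODE M21. There were 24 such genes, of which 21 were listed, Dio1, Gpx2 and Selenov being the exceptions. Both knockout values were above both control values in 8 of the 21 and below in 3, beside 25.0% and 26.2% of all genes. Limma called 0 of them, with 6 higher and 2 lower at an unadjusted p under 0.05, beside 10.3% and 7.69% of all genes. Members made up 4 of the 21. Of these, Gpx3, Gpx4 and Sephs2, chosen with their values known, were among the 8 above and the 6 higher. The median log2 fold change of the 21 was 0.21, against -0.01 over all genes. Without the members, the 17 other selenoproteins had a median of 0.06, with 5 above and 3 below. With equal RPKM sums the split of the 21 was 6 above and 8 below, beside 7.02% and 58.9% of all genes. With the reads listed it was 6 and 6, beside 11.4% and 47.2%. On both of these scales fewer of the 21 stood above and more below, as over all genes, but the number above fell less in proportion. Gpx3, Gpx4 and Sephs2 were among those above on each scale.

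Where UGA lies matters to the stability of these mRNAs as background: read as a stop well upstream of an exon junction, it can send the mRNA to nonsense-mediated decay, as happens to some selenoprotein mRNAs when selenium is scarce. The genes were therefore set out by the distance of their first UGA codon to the last exon junction. In 10 of the 21 it was over 50 bases before that junction, among them Gpx1 (105 bases), Gpx3 (240 bases) and Gpx4 (342 bases). These 10 had a median log2 fold change of 0.17, with 3 above, Gpx3 and Gpx4 among them, and 2 below. The 9 genes with a UGA nearer to the junction or past it had a median of 0.05, with 3 above and 1 below. Over all genes the median was -0.01, with 25.0% above and 26.2% below. On the reads listed, the first class had 2 above and 4 below and the second 2 and 2. The shares over all genes were then 11.4% and 47.2%. With equal RPKM sums each of these classes had 2 above and 4 below, beside 7.02% and 58.9% of all genes. Sephs2 and Dio3 have 1 exon and no junction, and their log2 fold changes were 1.08 and 1.66. Values spread widely within each class, and no difference between classes was tested.

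**Figure D3:**
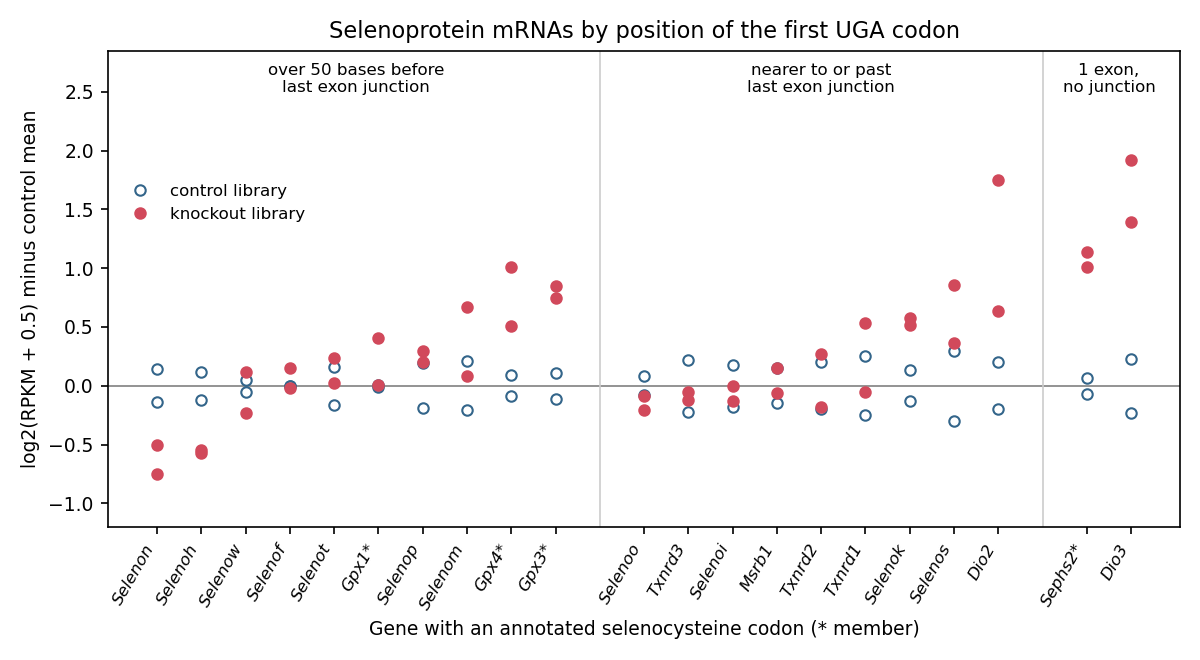
Each library's log2(RPKM + 0.5) minus the control mean, for the 21 genes listed with an annotated selenocysteine codon, in 3 classes by position of the first UGA codon, open blue for control and filled red for knockout. Gpx3, Gpx4 and Sephs2 stand among the genes with both knockout points above the control points, and Selenon and Selenoh have both below.

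Among the other selenoproteins, 17 of the 19 on the list drawn up for them were measured, and limma called 0 of these 17. At an unadjusted p under 0.05, 3 were higher and 2 lower, beside 10.3% and 7.69% of all genes. By q-value, the authors' deposited table had 2 of them higher, the deiodinases Dio2 and Dio3, and 1 lower, Selenon. The shares over all genes by q-value were 3.59% higher and 4.26% lower. Dio3, which inactivates thyroid hormone, had 0.765 and 0.425 RPKM in the controls, against 3.59 and 2.34 RPKM in the knockouts, with a limma adjusted p of 0.133 and a q-value of 4.84e-07 in the authors' deposited table. It rested on 18 to 188 reads a library. Dio2, which activates thyroid hormone, had 2.98 and 2.13 RPKM against 9.69 and 4.2 RPKM, with knockout 1 far above knockout 2, a limma adjusted p of 0.219 and a q-value of 0.000869 in the authors' deposited table. Selenon, the endoplasmic reticulum selenoprotein mutated in a congenital myopathy, had 14.5 and 17.7 RPKM against 9.33 and 11.2 RPKM. Its log2 fold change was -0.63 (standard error 0.18) and the limma adjusted p was 0.196, beside a q-value of 0.0329 in the authors' deposited table. Txnrd1 (cytosolic thioredoxin reductase), Selenok (an endoplasmic reticulum protein) and Selenos (of the same compartment) had the highest mean RPKM of the list, although Selenow (160 RPKM) was above Selenos (137 RPKM) in control 2. Txnrd1, Selenok and Selenos stood more than an order of magnitude below Gpx3 in each library.

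Genes that supply selenium or help recoding were counted from a list of 12, of which 11 were measured. Limma and limma-voom called 0 of them, and 0 had a q-value under 0.05 in the authors' deposited table, while 2 of the 11 were higher at an unadjusted p under 0.05 with limma, beside 10.3% of all genes. The most abundant were Ncl (nucleolin, which binds selenoprotein mRNAs) with 135 and 117 RPKM in the controls, against 195 and 133 RPKM in the knockouts, and Eif4a3, which can hinder Secisbp2 binding, with 110 and 112 RPKM against 148 and 133 RPKM. Together with the other selenoproteins, 8 of 28 genes had both knockout values above control and 4 below on the authors' scale. The shares over all genes on that scale were 25.0% and 26.2%. Scaled by the reads listed, 4 were above and 10 below, beside 11.4% and 47.2% of all genes. With equal RPKM sums the numbers were 4 and 12, beside 7.02% and 58.9%, so all genes moved the same way.

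The reactions next to the glutathione peroxidases were counted in the same way, and limma called 0 genes in each list, with 0 to 3 higher and 0 to 1 lower at an unadjusted p under 0.05. The shares over all genes were 10.3% and 7.69% by that p, and 3.59% higher and 4.26% lower by the authors' q-value under 0.05. By separation they were 25.0% above and 26.2% below on the authors' scale, and 7.02% and 58.9% with equal RPKM sums. Of 10 genes of glutathione supply and reduction, 5 were above and 2 below, or 2 and 3 with equal RPKM sums. The 1 with a q-value under 0.05 in the authors' deposited table was Ggct, which breaks down gamma-glutamyl dipeptides, at 1.82 and 1.74 RPKM in the controls, against 4.81 and 5.75 RPKM in the knockouts. Of 12 other peroxide and superoxide enzymes measured, 7 were above and 2 below, or 2 and 3 with equal RPKM sums. Catalase (Cat), the peroxisomal enzyme that removes hydrogen peroxide without glutathione, had 25.3 and 30.5 RPKM in the controls, against 16.4 and 18.4 RPKM in the knockouts, 1.60-fold lower, with a limma adjusted p of 0.177 and a q-value of 0.03 in the authors' deposited table. Of 12 genes measured from a list for control of lipid peroxidation, iron and cystine handling included, 3 were above and 1 below, or 1 and 5 with equal RPKM sums. The most abundant were the ferritin subunits Fth1 (5418 and 4451 RPKM, 6677 and 7438 RPKM) and Ftl1 (2040 and 1568 RPKM, 2519 and 2480 RPKM). Both ferritin subunits were among the 3 above. The 1 below, Slc7a11, was also counted among the 2 below for glutathione supply and reduction. Of 8 genes listed for thiol oxidation in the secretory pathway, where Gpx7 and Gpx8 act, 1 was above and 2 below, or 0 and 5 with equal RPKM sums. The 1 above was Hspa5, a chaperone and not a thiol oxidase. Hspa5 (3919 and 4131 RPKM, 5101 and 5282 RPKM) and Pdia3 (679 and 584 RPKM, 799 and 666 RPKM) were the most abundant of the 8.

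For Gpx3 and Sephs2 the genes with the most similar profile over the 4 libraries were listed by Euclidean distance of centred log2(RPKM + 0.5) values, among 4579 other genes with a mean of at least 10 RPKM. For Gpx3 these were Atp6v0c (distance 0.050), Rps27rt (0.052) and Gtf2b (0.057). Atp6v0c, a proton pump subunit, had 11.1 and 9.61 RPKM in the controls, against 17.5 and 18.3 RPKM in the knockouts. For Sephs2 they were Isg15 (0.085), Irf9 (0.146) and Bpnt1 (0.151). Isg15, a small protein that interferon induces, had 30.5 and 29.3 RPKM against 69.0 and 59.6 RPKM. A distance over 4 libraries orders genes only loosely.

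Because Gpx3 and Sephs2 both stood higher in the knockout libraries, the 100 bases before their start sites were set side by side (RefSeq, GRCm38.p6, 5′ to 3′ on the strand of the gene). Capitals mark matches to the motifs named below, at chr11:54902754-54902853 (plus strand) for Gpx3 and chr7:127274060-127274159 (minus strand) for Sephs2. The RefSeq start site of Gpx3 lies 401 bases inside the gene as deposited, and that of Sephs2 lies 140 bases before it.
Gpx3: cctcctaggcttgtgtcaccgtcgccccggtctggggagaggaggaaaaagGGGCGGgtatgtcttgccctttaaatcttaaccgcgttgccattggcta
Sephs2: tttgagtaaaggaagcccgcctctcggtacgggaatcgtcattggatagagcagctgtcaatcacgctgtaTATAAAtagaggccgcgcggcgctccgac

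The 4 motifs were searched on both strands in the window from 250 bases before to 50 bases after each start site. The members had 13 such windows from 9 genes. A GC box (GGGCGG) was found in 8 of the 13 windows, Gpx3 included, and in 35.7% of all 32851 promoter windows. The 8 windows belong to 6 genes: 3 are of Gpx4, and 2 of these overlap and hold the same boxes, so that they count in both. A TATA box (TATAAA) was found in 1 of the 13, that of Sephs2, and in 13.6% of all. The core motif of many nuclear receptors (AGGTCA) was found in 1 of the 13, a Gpx4 window, and in 16.3% of all. The antioxidant response element core (TGACNNNGC) was found in none of the 13 and in 12.4% of all. A base could count toward more than 1 motif, and a match is a description of letters, not of binding.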

How the data were processed

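RNA of sorted muscle stem cells was reverse transcribed from 10 ng with a full-length low-input kit, per the labels' protocols. Per the submitters' processing notes, reads went through edgeR, Subread featureCounts, STAR and Trim Galore (listed without order) on mm10 (GRCm38), in versions not given in the sources used here. Deposited by the authors was 1 table with RPKM values for each library and a q-value (an adjusted p-value) for knockout against control. The unit of the library columns is not in the header: RPKM was inferred because multiplying by gene length gave whole multiples of a fixed step, with 100% of values within 0.01 reads of a whole read. Columns starting with Ct were matched to control, and those starting with Fl, which no label explains, to knockout by elimination.

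The members and lists were chosen with earlier results of these data known. limma 3.58.1 in R 4.3.3 was fitted with a mean-variance trend to log2(RPKM + 0.5) of all 11603 genes in 4 libraries, with genotype as the only term, Benjamini-Hochberg adjustment and a threshold of 0.05. The fit was also run on simulated reads with known changes. These were drawn independently for each library, without the shifts of scale seen here, so the run does not measure how the fit behaves on these data. Group differences given as N-fold are ratios of mean RPKM. The text names all members, for each other list the genes with a deposited q-value under 0.05 or else the 2 most abundant, and the 3 nearest profiles of Gpx3 and Sephs2. Txnrd1, Selenok, Selenos, Selenow, Selenoh, Slc7a11 and the single marker genes were named after their values were seen. Selenof, turned into a date in the table, was matched by Entrez ID. The alternatives were 2 other pseudocounts, a filter at a mean of 1 RPKM, scaling by the reads listed, limma-voom on recovered reads, limma without a trend, leaving out each library, a replicate block, and equal RPKM sums, which was added after seeing the data.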

Additional observations from a re-analysis of the deposited data

How the results depend on the processing

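Gpx3, Gpx4, Sephs2, Gpx7, Gpx8, Sephs1 and Sepsecs kept their direction under each of the 12 alternatives run. The filter, limma without a trend and the replicate block leave the fold change of a gene unchanged, so they could not turn a direction. The main differences of Gpx8 and Sepsecs were smaller than their standard errors, and without knockout 2 they were -0.01 and -0.07. Gpx1 turned to -0.03 when scaled by the reads listed and to -0.15 with equal RPKM sums. Secisbp2 turned to -0.11 and -0.23 under the same scalings. Leaving out 1 library at a time gave -0.13 to 0.34 for Secisbp2 and -0.30 to 0.19 for Pstk. The labels share replicate numbers, but do not say that a number marks a shared animal or day, and deviations of same-numbered libraries correlated at 0.414 over 10007 genes, which with 2 pairs does not show pairing. With a replicate block, limma called 1004 genes in place of 1, among them 2 members (Gpx7 and Sephs2) and 5 other selenium pathway genes in place of 0. limma-voom called 11 genes and limma without a trend 0 (2097 at an unadjusted p under 0.05). Leaving out 1 library gave 3 to 5 members above control and 3 to 5 below, since fewer values separate more easily. Of the other selenium pathway genes, 12 to 16 were then above and 6 to 8 below. The shares over all genes with 1 library left out were not counted, so no lean is read from these numbers. In the fits with 1 library left out, the lone library of a group is assumed to vary like the other group. In the 4 libraries, the other selenium pathway genes numbered 8 above and 4 below, beside 25.0% and 26.2% of all genes. Scaled by the reads listed they numbered 4 and 10, beside 11.4% and 47.2%. With equal RPKM sums they numbered 4 and 12, beside 7.02% and 58.9%. With 2 libraries a group, the spread between replicates limits every value, and Pstk had as few as 103 reads.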
